A study of Mus musculus with 20 samples.

Results

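The Notch receptors, their ligands and the Hes and Hey genes were read as 10 genes chosen by symbol, out of 29692 genes in the RNA-seq table: the receptors Notch1, Notch2, Notch3 and Notch4, the ligands Dll1, Dll3 and Jag1, and the transcription factors Hes1, Hes6 and Hey1. Each symbol occurred once in the table. Mouse embryonic stem cells, which are pluripotent cells kept in culture, were grown with 10% FBS and leukemia inhibitory factor and then sorted by flow cytometry on 2 pluripotency factors. State 3 was low in both Nanog and Sox2, state 2 in Nanog alone, and state 1 was high in both. The total population was the 4th group. Each group had 3 libraries of rRNA-depleted RNA, which the authors combined into 1 value per gene and group, so the values carry no spread between libraries and no p-value could be computed. The labels used here give no strain or line, no treatment beyond the culture medium that all groups share, and no account of how the levels of the factors were read in the sorter.

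In Notch signalling, a ligand on one cell binds a receptor on its neighbour, the receptor is cut by ADAM proteases and gamma-secretase, and its intracellular part enters the nucleus. There it joins the DNA-binding protein RBPJ and a Mastermind coactivator and switches on genes such as Hes1 and Hey1, which encode basic helix-loop-helix repressors. In mouse embryonic stem cells the pathway is known for favouring neural commitment when it is activated, and Hes1 is known for levels that oscillate over time and differ between cells.

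The values are the authors' normalized signal, with no scaling to gene length stated, so levels are compared within a gene and not between genes. A difference was called where the probability that 2 groups are unequal, summed here over the patterns of the authors' deposited table, was at least 0.95. Log2 ratios were taken on the value plus 1, and the error given with them is the standard error from counting alone. The column totals lay between 16916246 and 17726044 value units. With the value of 1 read estimated at 0.28 to 0.36, between 48000000 and 60400000 reads stand behind a group. Nanog had a value of 440.0 in state 3, 743 in state 2, 4145 in state 1 and 2783 in the total population. Sox2 had 1306, 3167, 4155 and 3954.5 in that order. The low and high groups of each factor are as the sort labels have it, but states that share a label were not matched. Nanog was called lower in state 3 than in state 2 (log2 -0.76), and Sox2 lower in state 2 than in state 1 (log2 -0.39). Of the 10 pluripotency markers, 9 were called lower in state 3 than in state 1, beside 9.01% of all genes. Nanog and Sox2 are among these 9, and their direction was set by the sort.

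Most members were called between the Nanog-low states and state 1, and 2 of 10 were called between the Nanog-low states themselves. The latter share is near the 15.02% of genes with a mean value of at least 5 that were called there. Members that were not called are not shown to be equal. In state 3 against state 1, 6 members rose (Notch2, Notch3, Dll1, Dll3, Jag1 and Hes6), 2 fell (Notch1 and Notch4) and 2 were not called (Hes1 and Hey1). Of all genes in the table, 20.4% were called in this comparison, 11.4% higher and 9.01% lower in state 3, and 35.5% of the 16795 genes with a mean value of at least 5, a limit that every member passed. In state 2 against state 1, the same 6 members rose and the same 2 fell, beside 13.4% of all genes called, 7.11% higher and 6.33% lower, and 23.6% of genes above the limit. In state 3 against state 2, 2 members rose (Notch3 and Notch4) and none fell, beside 8.59% of all genes called, 5.41% of all genes higher in state 3, and 15.02% of genes above the limit called. The median log2 ratio of the 10 members was 0.68, 0.46 and 0.22 in these 3 comparisons, and that of all genes was 0 in each. The first 2 comparisons share the state 1 libraries, so their calls are not independent of each other. In sorted bulk samples, more cells that transcribe a gene and more RNA per cell cannot be told apart.

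**Figure D1:**
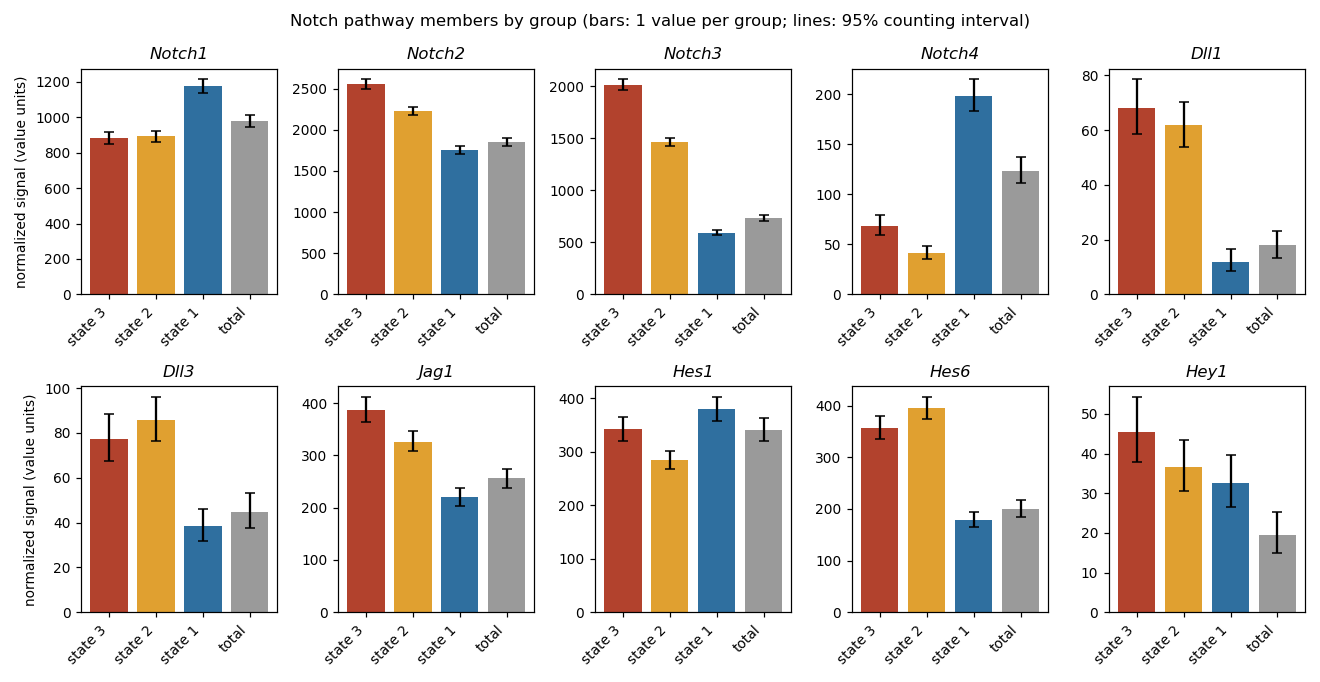
Normalized signal (value units, linear axis from 0) of the 10 members in state 3, state 2, state 1 and the total population. Each bar is the authors' single value for a group and each line its exact 95% Poisson interval for counting error only. Dll1 stood at 68.1 and 61.7 in states 3 and 2, against 11.95 in state 1, while Notch4 was highest in state 1 at 198.

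Among the receptors, Notch3 and Notch2 were higher in the Nanog-low states, and Notch1 and Notch4 were lower. Notch3 (ENSMUSG00000038146.7; GRCm38 chromosome 17, 32120820 to 32166896), a receptor best known from vascular smooth muscle, had values of 2013 in state 3, 1461 in state 2, 594 in state 1 and 732 in the total population. Its 3 states formed a descending order in which every step was called. Relative to state 1 its log2 ratio was 1.76 ± 0.039 in state 3 and 1.30 ± 0.039 in state 2, and relative to state 2 it was 0.46 ± 0.028 in state 3. For the smallest of these steps the probability summed from the authors' deposited table was 0.994.

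Notch4 (ENSMUSG00000015468.14; chromosome 17, 34564286 to 34588543), a receptor known from endothelium, ran the other way. It had values of 68.6 in state 3, 41.5 in state 2, 198 in state 1 and 124 in the total population. Relative to state 1, Notch4 fell in both Nanog-low states, with log2 ratios of -1.52 ± 0.12 in state 3 and -2.23 ± 0.13 in state 2. State 2 was its lowest group, and the step from there was called upward in state 3, with a log2 ratio of 0.71 ± 0.16 and a probability of 0.998 summed from the authors' deposited table. These values rest on an estimated 148 to 620.2 reads per group.

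Notch2 (ENSMUSG00000027878.11; chromosome 3, 98013538 to 98150367), a widely expressed receptor, moved less. Its values were 2554 in state 3, 2233 in state 2, 1758 in state 1 and 1846 in the total population. The rise was called in state 3 (log2 0.54 ± 0.026) and in state 2 (0.34 ± 0.025) against state 1, and the difference between states 3 and 2 was not called (log2 0.19, counting interval 0.15 to 0.24). Notch1 (ENSMUSG00000026923.15; chromosome 2, 26457902 to 26503822), the receptor of many stem and progenitor tissues, had 882 in state 3, 893 in state 2, 1175 in state 1 and 978 in the total population. State 1 was its highest group, with log2 ratios of -0.41 ± 0.038 for state 3 and -0.40 ± 0.035 for state 2 against state 1. States 3 and 2 were not called apart (log2 -0.018, counting interval -0.094 to 0.058). The Notch1 calls depend on the order in which the patterns of the authors' deposited table are read: with state 1 and the total population exchanged, the summed probabilities were 0.276 and 0.249 and neither call held.

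**Figure D2:**
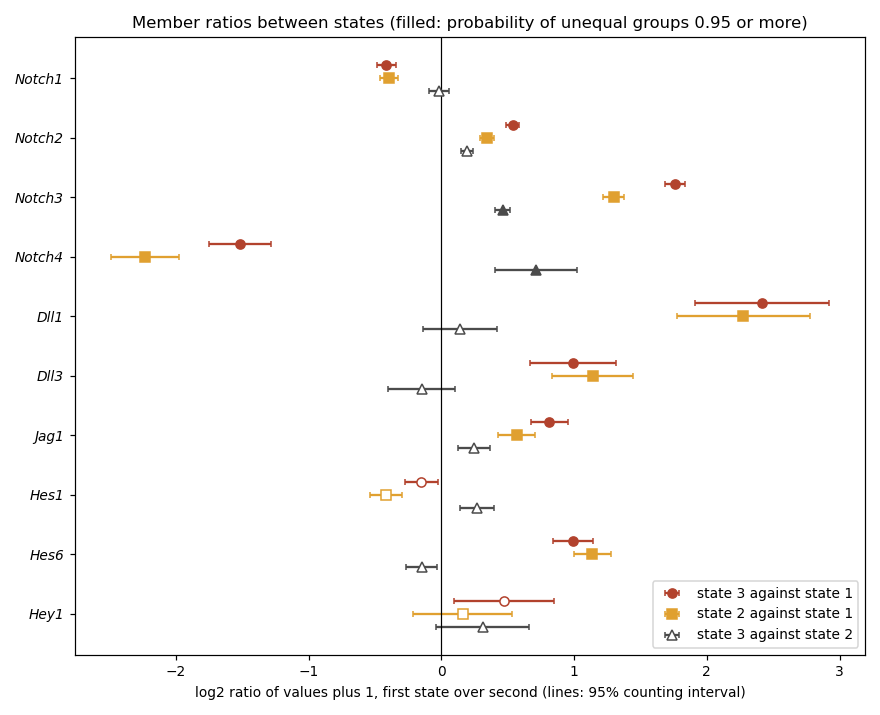
Log2 ratios of values plus 1 between states for the 10 members, with 95% intervals for counting error only as lines. Filled markers are called at a summed probability of 0.95 or more. Circles and squares lie far from 0 for Dll1 (2.42 and 2.28) and on opposite sides for Notch3 (1.76 and 1.30) and Notch4 (-1.52 and -2.23), while triangles are filled for Notch3 and Notch4 only.

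All 3 ligands among the members were higher in the Nanog-low states. Dll1 (ENSMUSG00000014773.13; chromosome 17, 15367354 to 15376932), an activating Delta ligand of presomitic mesoderm and neural progenitors, had values of 68.1 in state 3, 61.7 in state 2, 11.95 in state 1 and 17.9 in the total population. It had the widest range over the states of the 10 members, with log2 ratios of 2.42 ± 0.26 for state 3 and 2.28 ± 0.26 for state 2 against state 1. An estimated 37.3 reads stand behind the state 1 value, whose counting interval is 8.43 to 16.5. States 3 and 2 were not called apart (log2 0.14, counting interval -0.14 to 0.42).

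Dll3 (ENSMUSG00000003436.11; chromosome 7, 28293555 to 28301785), a divergent Delta protein that does not activate receptors on neighbouring cells, had 77.4 in state 3, 85.8 in state 2, 38.4 in state 1 and 44.9 in the total population. The rise against state 1 was 0.99 ± 0.16 in state 3 and 1.14 ± 0.16 in state 2 on the log2 scale. Jag1 (ENSMUSG00000027276.7; chromosome 2, 137081451 to 137116520), a ligand of the Serrate class, had 387 in state 3, 326 in state 2, 220.0 in state 1 and 256 in the total population. Its log2 ratios were 0.81 ± 0.070 and 0.57 ± 0.069 for states 3 and 2 against state 1. Neither ligand was called between states 3 and 2, where Dll3 had a log2 ratio of -0.15 and Jag1 of 0.25.

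The Hes and Hey genes did not move together. Hes6 (ENSMUSG00000067071.8; chromosome 1, 91411483 to 91414038) encodes a Hes relative that binds Hes1 protein and opposes it, and favours neuronal differentiation. It had values of 357 in state 3, 395 in state 2, 179 in state 1 and 200.3 in the total population, with log2 ratios of 0.99 ± 0.076 for state 3 and 1.14 ± 0.072 for state 2 against state 1. Both Nanog-low states stood above state 1 and the total population, and they were not called apart from each other (log2 -0.15, counting interval -0.26 to -0.030).

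Hes1 (ENSMUSG00000022528.7; chromosome 16, 30065357 to 30067796), the Notch-responsive repressor, had 342 in state 3, 284 in state 2, 380 in state 1 and 342 in the total population. No comparison was called: the probabilities summed from the authors' deposited table were 0.406 for state 3 against state 1 (log2 -0.15, counting interval -0.27 to -0.027) and 0.512 for state 2 against state 1 (log2 -0.42, counting interval -0.54 to -0.30). The pattern with all 4 groups equal had a probability of 0.481 in the authors' deposited table, so equality was not established either. Hey1 (ENSMUSG00000040289.8; chromosome 3, 8663359 to 8667038), a hairy-related repressor of cardiovascular development, had 45.5 in state 3, 36.5 in state 2, 32.6 in state 1 and 19.5 in the total population. Its summed probabilities in the authors' deposited table were 0.910 for state 3 against state 1 (log2 0.47, counting interval 0.095 to 0.85, and 0.14 after quantile rescaling) and 0.931 for state 3 against the total population (log2 1.18, counting interval 0.73 to 1.63), just under the limit.

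Promoter sequences are shown for 4 members whose values differed between the states, the receptors Notch3 and Notch4 that ran in opposite directions, the ligand Dll1 with the widest range, and Hes6. They are from RefSeq (GRCm38.p6), 300 bases each, 250 before and 50 after the start site of the promoter entry, written 5′ to 3′ on the strand of the gene. Capitals mark CACGNG, a site bound by Hes and Hey repressors, on either strand.
Notch3 (chr17:32166841-32167140, minus strand): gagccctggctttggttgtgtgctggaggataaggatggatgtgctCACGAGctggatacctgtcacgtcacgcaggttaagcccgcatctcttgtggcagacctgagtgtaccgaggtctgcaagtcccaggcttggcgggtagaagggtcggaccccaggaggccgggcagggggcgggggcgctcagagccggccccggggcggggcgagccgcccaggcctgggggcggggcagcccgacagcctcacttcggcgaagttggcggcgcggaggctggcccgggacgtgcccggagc
Dll1 (chr17:15376883-15377182, minus strand): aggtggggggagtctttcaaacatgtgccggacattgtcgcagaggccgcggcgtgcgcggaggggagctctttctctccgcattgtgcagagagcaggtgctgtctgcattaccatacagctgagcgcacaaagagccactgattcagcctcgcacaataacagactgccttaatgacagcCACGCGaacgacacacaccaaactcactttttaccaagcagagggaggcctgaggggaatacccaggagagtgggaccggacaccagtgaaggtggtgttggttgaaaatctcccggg
Hes6 (chr1:91413989-91414288, minus strand): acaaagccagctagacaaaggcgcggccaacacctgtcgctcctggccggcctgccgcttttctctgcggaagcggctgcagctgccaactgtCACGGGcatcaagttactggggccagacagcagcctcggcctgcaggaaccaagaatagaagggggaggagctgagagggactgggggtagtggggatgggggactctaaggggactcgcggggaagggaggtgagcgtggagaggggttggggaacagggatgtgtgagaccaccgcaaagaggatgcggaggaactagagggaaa
Notch4 (chr17:34564045-34564344, plus strand): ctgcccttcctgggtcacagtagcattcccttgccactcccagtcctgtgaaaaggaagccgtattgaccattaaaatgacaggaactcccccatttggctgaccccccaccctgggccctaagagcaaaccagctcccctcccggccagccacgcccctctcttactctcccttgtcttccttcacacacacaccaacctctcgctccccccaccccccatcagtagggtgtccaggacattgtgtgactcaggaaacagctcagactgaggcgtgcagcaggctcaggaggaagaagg
Promoters were matched by symbol for 8 of the 10 members, all but Hes1 and Hey1. Dll1 and Hes6 have 2 entries each, and the one nearest to the annotated gene start was taken. CACGNG was found in the promoters of 5 of these 8 (Notch2, Notch3, Dll1, Jag1 and Hes6), against 27.5% of the 32851 promoters of the same length in the table. The CACGNG match starts 204 bases before that start site in Notch3, 68 in Dll1 and 157 in Hes6. For Notch3 and Notch4 the start site of the entry lies a few bases inside the gene span given above. The Notch4, Notch1 and Dll3 windows hold no CACGNG. The N-box CACNAG, another Hes site, was found in 4 of 8 (Notch1, Notch2, Notch3 and Dll1), against 42.5% of all promoters, and in Notch3 one match is the same 6 bases as its CACGNG. The RBPJ core TGGGAA was found in none of the 8, against 25.6% of all promoters. All motifs were searched on both strands. The GC content of the 4 promoters shown was 70.0%, 56.3%, 62.0% and 58.3% for Notch3, Dll1, Hes6 and Notch4, and the median of all promoters was 52.7%. A match is a description of letters in a window and shows no binding.

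The patterns of the authors' deposited table sort the members into kinds. In 6 of 10 members (Notch2, Dll1, Dll3, Jag1, Hes6 and Hey1) the likeliest pattern set states 3 and 2 equal, state 1 and the total population equal, and both pairs apart. Over all genes this was the likeliest pattern in 11.3%. Its probability in the authors' deposited table was 0.966 for Hes6, 0.956 for Dll3, 0.913 for Dll1, 0.877 for Jag1, 0.682 for Notch2 and 0.553 for Hey1. Hey1 was called in no comparison, and its state 1 value (32.6) lay nearer to state 2 (36.5) than to the total population (19.5). Notch3 was likeliest with states 3 and 2 apart from each other and from an equal state 1 and total population (0.592 in the authors' deposited table), and Notch4 with all 4 groups apart (0.998 in that table). Notch1 was likeliest with state 1 alone apart, at 0.722 in the authors' deposited table.

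**Figure D3:**
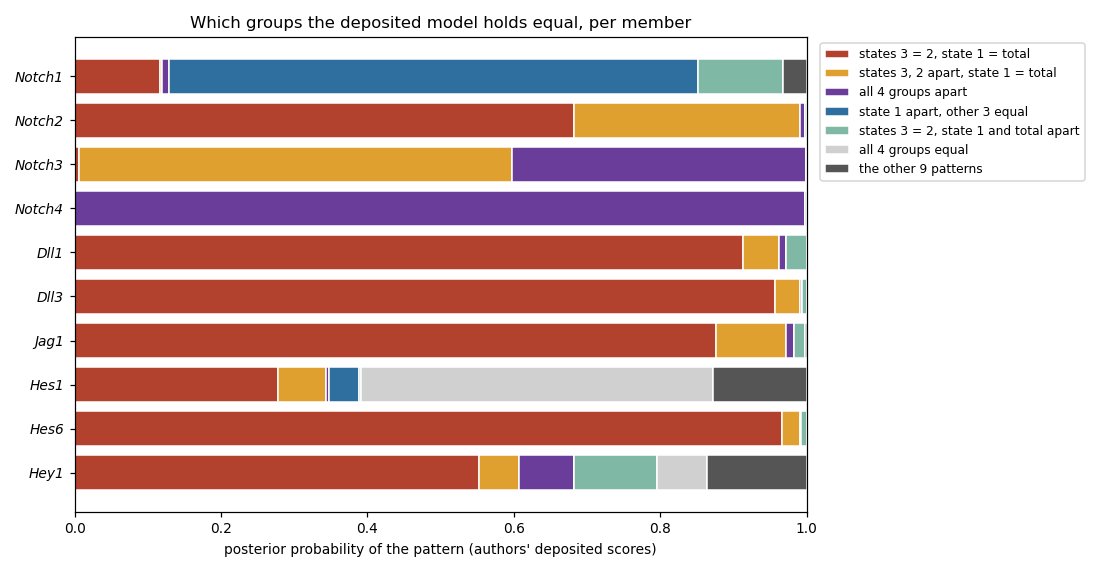
Posterior probability (0 to 1) of each pattern of equal and unequal groups for the 10 members, as given in the authors' deposited table. Most of the bar is the pattern of states 3 and 2 equal for Hes6 (0.966), Dll3 (0.956), Dll1 (0.913) and Jag1 (0.877), whereas Notch4 is almost wholly the pattern with all groups apart (0.998).

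The place of state 2 between states 1 and 3 varied among the members. For the 8 members called between states 3 and 1, state 2 was placed on a scale of log2 values that is 0 at the state 1 value and 1 at the state 3 value. Its position was 0.94 for Dll1, 0.96 for Notch1, 0.74 for Notch3, 0.70 for Jag1 and 0.64 for Notch2. It passed 1 for Dll3 (1.15), Hes6 (1.15) and Notch4 (1.47), whose state 2 values lay beyond those of state 3. Only Notch4 of these was called between states 3 and 2, and the summed probabilities for Dll3 and Hes6 were 0.037 and 0.026. The median of the 8 was 0.95, and the median of the 6070 genes called in the same comparison was 0.60. This difference of medians was not tested.

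Against the total population, the Nanog-low states gave nearly the same members. In state 3, 6 members were higher (Notch2, Notch3, Dll1, Dll3, Jag1 and Hes6) and Notch4 was lower, beside 10.8% and 8.32% of all genes. In state 2 the same 6 were higher and Notch4 was lower, beside 5.82% and 5.3% of all genes. Of genes with a mean of at least 5, 33.2% were called in state 3 and 19.5% in state 2 against the total population. Between state 1 and the total population Notch4 alone was called, higher in state 1 by a log2 ratio of 0.68 ± 0.094. Of all genes, 0.707% were called higher in state 1, and 3.50% of genes with a mean of at least 5 were called. Other members were not called but differed in value. Hey1 had a log2 ratio of 0.71 (counting interval 0.25 to 1.17) and Notch1 of 0.26 (0.19 to 0.33). Notch3 had -0.30 (-0.39 to -0.21) and Dll1 -0.54 (-1.15 to 0.057). These comparisons share the total population libraries.

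The rest of the pathway was read from 10 lists of 93 measured genes, the 4 receptors and the other members included. In state 3 against state 1, 28 of the 93 rose, 14 fell and 51 were not called, with a median log2 ratio of 0.18. In state 2 against state 1, 22 rose and 13 fell, and in state 3 against state 2, 11 rose and 5 fell. Called genes made up 45.2%, 37.6% and 17.2% of the lists in these comparisons, beside 35.5%, 23.6% and 15.02% of all genes with a mean of at least 5. The lists include the members, which were chosen with results known, and 81 of the 93 genes had a mean of at least 5.

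**Figure D4:**
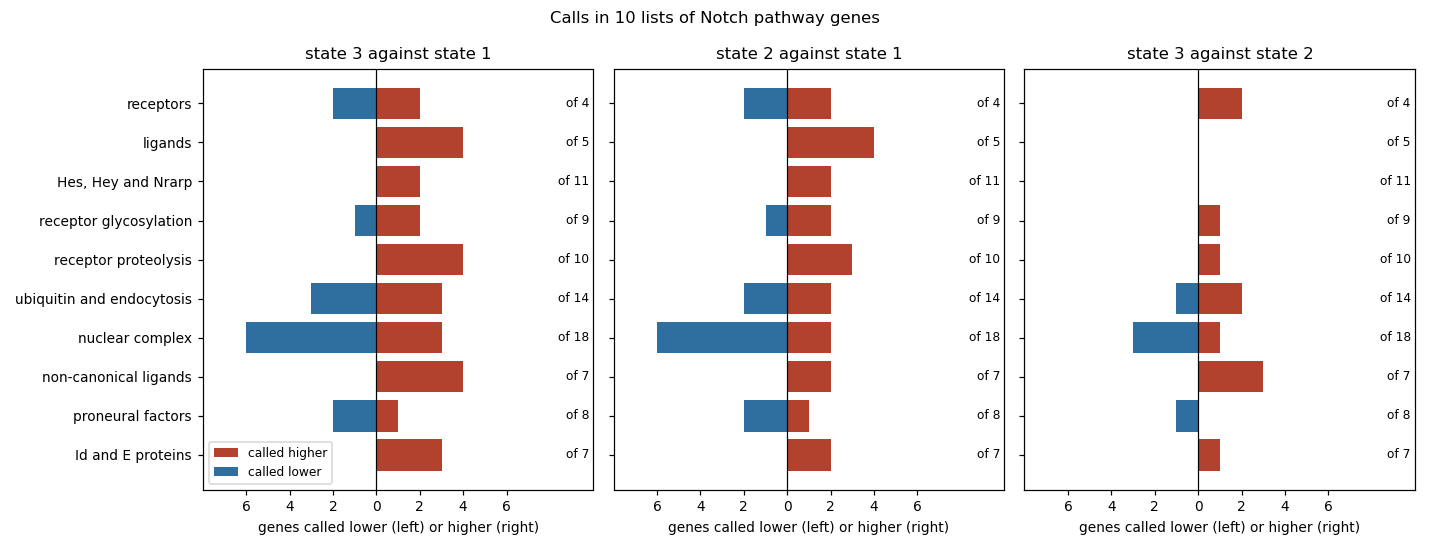
Number of genes called higher (right) or lower (left) in 10 lists of Notch pathway genes, in 3 comparisons between states, one to a panel. The number at the right is the measured size of the list. Of 5 ligands, 4 were called higher in states 3 and 2 against state 1 and none between states 3 and 2, and 6 of 18 genes of the nuclear complex were lower than in state 1.

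Of the 5 canonical ligands, 4 rose in each Nanog-low state against state 1 and none was called between states 3 and 2. The shares of genes with a mean of at least 5 called were 35.5%, 23.6% and 15.02%. The ligand outside the members that rose was Jag2, with 794 in state 3, 874 in state 2, 474 in state 1 and 541 in the total population. Dll4, the ligand of sprouting vessels, was near the limit of detection at 4.05, 1.17, 0.96 and 0.35, and was not called. A value of 3 reads corresponds to between 0.84 and 1.08.

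Of the 11 genes of the Hes, Hey and Nrarp list, 2 rose in both Nanog-low states against state 1, which were Hes6 and Nrarp, and 9 were not called. Among genes with a mean of at least 5, 35.5% and 23.6% were called in states 3 and 2 against state 1. Nrarp, a Notch target and feedback inhibitor, had 81.2 in state 3, 84.1 in state 2, 52.6 in state 1 and 56.7 in the total population (log2 0.62 and 0.67 for states 3 and 2 against state 1). Hes5, a main Notch target of neural progenitors, had 3.33 in state 3, 1.41 in state 2, 2.58 in state 1 and 1.71 in the total population. Hes7, the oscillator of presomitic mesoderm, was listed at 2.96 in state 3, 2.93 in state 2 and 0 in state 1. Hes5 and Hes7 rest on few reads, 1 read being worth 0.28 to 0.36. The median log2 ratio of the list was 0.47 for state 3 against state 1, with 6 of 11 genes above a mean of 5.

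Of 9 genes of receptor glycosylation, 2 rose and 1 fell in each Nanog-low state against state 1, a share near the 35.5% of genes above the limit that were called in state 3. The median log2 ratio of the list was -0.06 in state 3 against state 1. Lfng, the fringe enzyme that changes which ligands a receptor answers to, had 296 in state 3, 166 in state 2, 39.4 in state 1 and 70.0 in the total population. All 3 of its steps were called, with log2 ratios of 2.88 in state 3 and 2.05 in state 2 relative to state 1, and of 0.83 in state 3 relative to state 2. Gxylt1, a xylosyltransferase, rose by 0.58 and 0.49 for states 3 and 2 against state 1. Poglut1, which adds O-glucose to the receptors, fell to 886 in state 3 and 969 in state 2, against 1412 in state 1.

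Genes for cutting the receptor were higher where called. Of 10 genes 4 rose in state 3 and 3 in state 2 against state 1, none fell, and the median log2 ratio was 0.42 in state 3. The shares called are near the 35.5% and 23.6% of genes with a mean of at least 5 that were called. Furin, the convertase that processes new receptors, had 1509 in state 3, 815 in state 2 and 378 in state 1. Adam10, the ligand-dependent sheddase, had 625, 485 and 313 in the same order. Ncstn, a subunit of gamma-secretase, rose in both Nanog-low states (1419 in state 3 and 1315 in state 2, against 1085 in state 1). Reads of Aph1b and Aph1c, a pair of close paralogs, may be split between them, and neither was called.

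Ubiquitin ligases and endocytic regulators split. Of 14 genes 3 rose and 3 fell in state 3 against state 1, and 2 rose and 2 fell in state 2 against state 1. Beside them, 35.5% and 23.6% of genes with a mean of at least 5 were called. Dtx4, a deltex ubiquitin ligase, had 385 in state 3, 238 in state 2, 32.3 in state 1 and 98.2 in the total population, and was called at each step (log2 3.54, 2.84 and 0.69). The Mind bomb ligases, which make ligands competent by endocytosis, moved apart: Mib1 had 2236 in state 3 and 1835 in state 2, against 1479 in state 1, and Mib2 had 155 and 244, against 499. Dtx1 fell in state 3 (113, against 215 in state 1). Numbl, a relative of the Notch inhibitor Numb, rose in state 3 (497, against 381 in state 2 and 346 in state 1).

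In the nuclear complex, Rbpj was lower in both Nanog-low states, and the Mastermind genes Maml2 and Maml3 were higher. Of 18 genes 3 rose and 6 fell in state 3 against state 1. In state 2 against state 1, 2 rose and 6 fell, and between states 3 and 2, 1 was higher and 3 were lower in state 3. Of genes with a mean of at least 5, 35.5%, 23.6% and 15.02% were called in these comparisons. Rbpj, the DNA-binding core of the pathway, had 3101 in state 3, 3936 in state 2, 6707 in state 1 and 5873 in the total population, with every step between states called (log2 -1.11, -0.77 and -0.34). Maml2 had 76.5 in state 3, 51.5 in state 2 and 3.56 in state 1 (log2 4.09 and 3.52 against state 1). Its state 1 value rests on few reads, 1 read being worth 0.32 there, so the size of the rise is poorly determined. Maml3 had 166, 74.3 and 14.8 in the same order, and both of them encode Mastermind coactivators. Maml1, the other Mastermind gene of the list, had 930.2 in state 3, 788 in state 2 and 698 in state 1, and was called in state 3 against state 1 (log2 0.41) but not in state 2 against state 1 (log2 0.18). Among cofactors, the acetyltransferase Kat2b fell to 316 in state 3 and 571 in state 2, against 1125 in state 1, and the Groucho corepressor Tle3 to 1665 and 2196, against 3056. The other called falls against state 1 were Kat2a, Ncor1 and Hdac1.

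**Figure D5:**
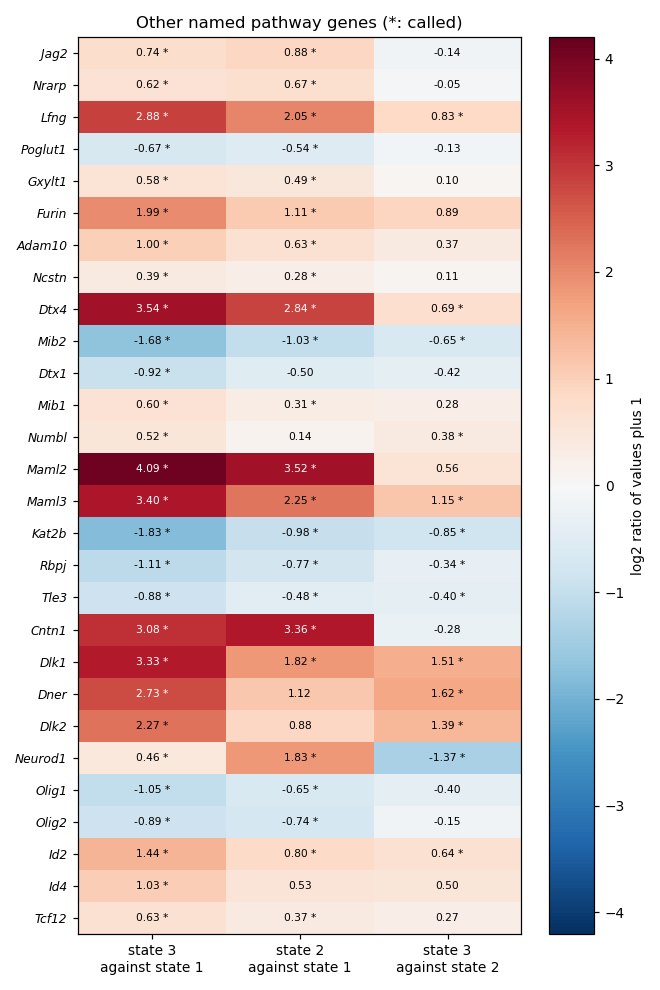
Log2 ratio of values plus 1 for pathway genes named in the text outside the 10 members, in 3 comparisons between states, one to a column, with called values marked by an asterisk. Red is higher and blue lower in the first state. Maml2 (4.09), Dtx4 (3.54), Maml3 (3.40) and Lfng (2.88) are, outside the non-canonical ligands, the largest of these rises in state 3 against state 1, and Kat2b (-1.83) and Mib2 (-1.68) the largest falls. The Maml2 value in state 1 (3.56) rests on few reads.

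Non-canonical ligands rose where they were called. Of 7 genes 4 rose in state 3 and 2 in state 2 relative to state 1, 3 were higher in state 3 than in state 2, and none fell. Genes with a mean of at least 5 were called in 35.5%, 23.6% and 15.02% of cases. Dlk1, a Delta-like protein without the receptor-activating domain, had 197 in state 3, 68.3 in state 2 and 18.7 in state 1. Cntn1, a contactin, had 10.2 in state 3 and 12.6 in state 2, against 0.32 in state 1, which is about 1 read, so its ratio is poorly determined. Dner rose in state 3 (31.5, against 9.60 in state 2 and 3.89 in state 1), as did Dlk2 (11.8, against 3.85 and 1.64). The state 1 values of Dner and Dlk2 rest on few reads, and the mean of Dlk2, 4.57, is below the limit of 5.

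Proneural factors are basic helix-loop-helix activators, some of which Hes proteins repress. They were listed together with Olig1 and Olig2, basic helix-loop-helix factors that are not proneural activators. Genes of this list moved in both directions, and both falls were Olig genes. Of 8 measured genes 1 rose and 2 fell in each Nanog-low state against state 1. Among genes with a mean of at least 5, a limit that 4 of the 8 passed, 35.5% and 23.6% were called in states 3 and 2. Neurod1 was highest in state 2, with 63.5 in state 3, 166 in state 2 and 46.0 in state 1, and was called in all 3 comparisons. Olig1 and Olig2 fell, to 111 and 179 in state 3, against 231 and 331 in state 1. Atoh1 stayed below 1 in every group and was not called. Of 7 genes for Id and E proteins, partners of basic helix-loop-helix factors, 3 rose in state 3 and 2 in state 2 against state 1. None fell, and the same 35.5% and 23.6% of genes stand beside these counts. Id1, Id3, Tcf3 and Tcf4 were not called between states. Id2 had 851 in state 3, 546 in state 2 and 312 in state 1 and was called at each step. Tcf12 rose in both Nanog-low states (1189 in state 3 and 988 in state 2, against 766 in state 1), and Id4 in state 3 (54.3, against 26.1 in state 1).

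The genes with profiles most like those of Dll1 and Notch4 over the 4 groups were found by the distance between centred log2 values among 10777 named genes with a mean of at least 50. For Dll1 they were Moxd1 (distance 0.20), Vwa2 (0.27) and Nrk (0.29). Moxd1 had 133 in state 3, 98.7 in state 2, 21.3 in state 1 and 32.2 in the total population. For Notch4 they were Fabp3 (0.31), Gjb5 (0.32) and Sema5b (0.32), and Fabp3 had 268, 180.2, 634 and 456 in the same order. With 4 groups, many genes share a profile.

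Some markers of cell types in which these genes are known also moved between the states. Of all genes, 11.4% were called higher and 9.01% lower in state 3 than in state 1. Summed values mostly follow the most abundant genes of a list. The smooth muscle and pericyte markers summed to 5087 in state 3, 1557 in state 2, 484 in state 1 and 945 in the total population, with 4 of 8 called higher in state 3 than in state 1, while the defining marker Myh11 stayed between 2.92 and 4.42. Presomitic mesoderm markers summed to 549.5, 92.3, 76.1 and 109.7, of which Cdx2, also on the trophectoderm list, made up 400.1 in state 3 and 4.18 in state 1. Meox1 had 4 in state 3, against 26.8 in state 1, and was not called. The list had Msgn1 and Ripply2 at 0 in states 3 and 1 and at 0.28 in state 2, and 3 of 10 called higher in state 3 than in state 1. Endothelial markers summed to 635, 1122, 1062 and 955, with 3 of 9 higher (Kdr, Cdh5 and Sox18) and 2 lower (Pecam1 and Vwf) in state 3 than in state 1. Neural progenitor markers summed to 7941, 3866, 2801 and 3171, of which Nes made up 5446 in state 3 and 248 in state 1. In state 3 against state 1, 2 of 12 were higher (Nes and Pax3) and 0 lower. Pax3 rests on few reads, at 5.2 in state 3 and 0.66 in state 1. Pax6 (55.6, against 103 in state 1) and Sox1 (499, against 449) were not called there, and Dcx was below 6 in every group. Trophectoderm, primitive endoderm and fibroblast markers were higher in state 3 than in state 1 in 7 of 10, 6 of 10 and 4 of 9 cases, with 1, 0 and 0 falls. Their summed levels were 10303, 2754 and 1495 in state 3, 2928, 1405 and 545 in state 2, and 1658, 1491 and 401 in state 1. Krt8 (5389) and Krt18 (3437) made up most of the trophectoderm sum in state 3. Tfap2c fell to 270 in state 3, against 951 in state 1, and Elf5 stayed below 1 in every group. Lama1, not called between these states, made up 1610 of the primitive endoderm sum in state 3 and most of it, 1329, in state 1. The part of these cell types in the values of the members was not tested.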

How the data were processed

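RNA-seq of sorted mouse embryonic stem cells and of the total population was analysed, 12 libraries in 4 groups; 8 small RNA libraries were not used. The deposited table gives a normalized signal per gene and group, combined from the libraries by the authors, as the table's name says. A further deposited score, a posterior probability, is given per gene for every one of 15 patterns in which groups are held equal or apart. Per the submitters' processing notes STAR 2.4.1d, RSEM 1.2.30, mm10 and GRCm38 were used, in roles that are not given in the sources used here; the table's name points to GENCODE M15 and EBSeq. How libraries were scaled, and whether counting used the strand, is not given either.

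The patterns are not spelled out. EBSeq's usual order was assumed, with the columns as state 3, state 2, state 1 and total population. In 94.4% of 1453 genes with a likely pattern, groups set equal lay closer together than groups set apart. The next best order, with state 1 and the total population exchanged, gave 90.8%. The scores of patterns that set 2 groups apart were summed across the whole table, and a difference was called at 0.95, a limit chosen here. The arithmetic of the sums was checked on simulated scores built with the same pattern order. That check could not test the limit, the deposited scores or the assumed order. Count tests, leaving out a library and a replicate block need values per library and were not run. The labels do not say that libraries came from separate cultures, so the probabilities may measure technical spread only. Log2 ratios used a pseudocount of 1. One read was taken as the commonest low value of a column, from which reads and 95% intervals were estimated; these cover counting error only. Coordinates are from RefSeq genes of GRCm38, matched by symbol. The 18 genes without a symbol (0.0195% of the summed state 1 signal) were not used in lists.

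The members and the lists were chosen with earlier results of these data known. The text names all members and, from each list, up to 5 genes called between states with the widest range, plus genes that make up small counts; Dll4, Hes5, Hes7, Hey2, Mfap2, Neurog3, Aph1b, Aph1c, Atoh1, Kat2a, Ncor1, Hdac1 and single markers were named after their values were seen. Some genes of the lists are counted but not reported here by name. Alternatives covered the limit (0.80, 0.99), a 2-fold minimum, the pattern order, a minimum mean of 5, pseudocounts of 0.1 and 5, and 3 rescalings. Python 3.11.15, numpy 2.4.6, pandas 2.3.3, scipy 1.17.1 and matplotlib 3.10.9 were used.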

Additional observations from a re-analysis of the deposited data

How the results depend on the processing

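Requiring at least a 2-fold change of the value plus 1 beside the call left 3 of 8 members in state 3 against state 1 (Notch3, Notch4 and Dll1). Dll3 was 2.02-fold there on the values themselves. The same rule left 5 of 8 in state 2 against state 1 (also Dll3 and Hes6) and 0 of 2 in state 3 against state 2. Of all genes, 9.32%, 4.93% and 2.83% passed it in these 3 comparisons. Against the total population the 2-fold rule left 2 of 7 in state 3, 2 of 7 in state 2 and 0 of 1 in state 1, beside 7.42%, 2.44% and 0.66% of all genes. A limit of 0.80 raised the count in state 1 against the total population to 2, by Notch1, beside 2.76% of all genes. It added Hey1 in state 3 against state 1 (9 members, beside 23.5% of all genes). Hey1 was also added in states 3 and 2 against the total population (8 each, beside 22.4% and 14.1%). Exchanging state 1 and the total population in the pattern order removed Notch1 from the calls of states 3 and 2 against state 1. This left 7 in each, beside 19.1% and 11.1% of all genes. The exchange added Notch1 to the calls of states 3 and 2 against the total population, giving 8 in each, beside 20.4% and 13.4%. The median position of state 2, 0.95 in the report, was 0.947 with a pseudocount of 5 and 0.923 after quantile rescaling. Of 300 recomputed log2 ratios of members, 296 kept their direction. The 4 that turned were not called: Notch1 for state 3 against state 2 (0.0029 by median of ratios), Hes1 for state 3 against the total population (-0.0053 with equal totals and -0.059 after quantile rescaling) and Hey1 for state 2 against state 1 (-0.082 after quantile rescaling). The cause was not tested. Quantile rescaling moved the median gene of mean 5 or more by -0.11 on the log2 scale in state 3 against state 1, and the called members kept their direction. No paired analysis was possible because the table holds 1 value per group, and for the same reason no library could be left out. Dll1 and Hey1, at an estimated 37.3 to 220 reads per group, are limited by depth.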

Other observations

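Hey1 was the member whose total population value, 19.5, lay below all 3 sorted states (45.5, 36.5 and 32.6 in states 3, 2 and 1). Of 16795 genes with a mean of at least 5, 13.0% had a total population value below all sorted states and 14.3% one above them.

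Some pathway genes had visible differences between the states but a probability of at least 0.95, in the authors' deposited table, that all groups are equal. They were Hey2, a hairy-related repressor (11.8 in state 3, 8.45 in state 2 and 3.54 in state 1), Mfap2, a microfibril protein (9.25, 9.40 and 3.86), and Neurog3, a proneural factor (8.82, 33.2 and 20.6), each with a log2 range of 1 or more. This held for 3 of 81 pathway genes and 626 of 16795 genes with a mean of at least 5. Not calling these genes does not show that their groups are alike.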
